A study of Mus musculus with 6 samples.

Results

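The genes described here are the receptors and ligands of the Notch pathway with the enzyme Lfng, 10 genes fixed by name: Notch1, Notch2, Notch3, Notch4, Dll1, Dll3, Dll4, Jag1, Jag2 and Lfng. Of the 17312 genes in the table of tumor RNA levels, 9 were members. Dll3, a divergent Delta-like ligand, had no row there, so its RNA level was not analysed here. All 9 members were among the 13873 genes that reached 1 FPKM in 3 or more tumors and so entered the test.

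The RNA came from 6 leg tumors of mice, 3 with a Cre-lox inducible SS18-SSX1 allele and 3 with a Cre-lox inducible SS18-SSX2 allele. The fusion, which drives synovial sarcoma, links the chromatin remodelling subunit SS18 to part of an SSX protein. Every mouse had received TATCre protein, a Cre recombinase that enters cells, by injection over the shin bone, with about 1 year until the tumor was taken. The labels name no untreated tissue, no cell type to which Cre was limited, and no age, sex or separate mouse for each tumor. The p-values therefore reflect the spread among these 6 samples, which may be partly technical.

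Levels are in FPKM, fragment counts corrected for gene length and library depth, with 7285853 to 17546227 reads behind each tumor. The summed FPKM of all genes still ran from 259460 in SS18-SSX2 tumor 1 to 442195 in SS18-SSX2 tumor 2. An order of tumors in FPKM, also one without overlap, can therefore change under another scaling. Of 13 synovial sarcoma genes 12 were in the table, and Tle1, a corepressor used to diagnose the disease and named for that, stood at 23.3 to 37.0 FPKM in all 6 tumors. Krt7, an epithelial keratin, had no row there. Tumor 2 of each genotype stood apart through muscle RNA, with a mean log2(FPKM + 1) over 22 muscle fibre genes of 7.57 and 6.40 against 2.27 to 3.34 in the other 4 tumors. Acta1, the skeletal actin, reached 2772 and 1219 FPKM there and 33.2 to 81.8 FPKM elsewhere. SS18-SSX2 tumor 2 also had the highest mean over 11 lymphocyte genes, 2.86 against 0.28 to 1.38, with 671 FPKM of Igkc. Its means of macrophage and adipocyte genes, 4.75 and 2.14, were the highest as well. SS18-SSX1 tumor 3 stood apart through mast cell RNA, with a mean over 8 genes of 7.41 against 1.24 to 3.28, and 625 FPKM of the protease Cma1 against 2.53 to 17.5 FPKM. The Y-linked gene Ddx3y had 28.2 to 35.2 FPKM with SS18-SSX1 against 0 to 0.0148 FPKM with SS18-SSX2, so genotype and sex cannot be told apart.

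Notch receptors are membrane proteins that are cut when a ligand on a touching cell, of the Delta-like (Dll) or Jagged (Jag) kind, pulls on them. The freed inner part enters the nucleus, binds the DNA-binding protein Rbpj and switches on repressor genes of the Hes and Hey kind. Fringe enzymes such as Lfng add a sugar to the receptor and alter its response to Delta-like and Jagged ligands. In many tissues Notch1, Notch4 and Dll4 are known from endothelial cells and Notch3 from pericytes and smooth muscle, and Jag1 and Notch2 are known from a wide range of mesenchymal cells.

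Notch2 and Jag1 were the most abundant receptor and ligand, and no member was called different between the genotypes. Over the 6 tumors the mean was 66.0 ± 14.95 FPKM for Notch2 and 42.3 ± 15.5 FPKM for Jag1 (SD, n = 6). Lfng followed at 19.9 ± 9.50, Notch1 at 14.5 ± 9.36 and Notch3 at 10.8 ± 4.22 FPKM. Jag2 had 8.24 ± 4.73, Dll4 7.87 ± 4.60, Dll1 5.04 ± 1.81 and Notch4 2.99 ± 2.66 FPKM. FPKM is a level per length of the gene model, so this order also rests on the lengths the authors used.

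Within single tumors Jag1 stood above Lfng and Lfng above Notch1 in 6 of 6. Notch2 stood above Jag1 in 5 of 6, the exception being SS18-SSX1 tumor 1 with 39.2 FPKM of Notch2 and 40.2 FPKM of Jag1. Neighbours from Notch1 down to Notch4 kept their order in 4 or 5 of 6 tumors, and each pair of neighbouring means lay closer than the larger of their SDs.

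Of the 9 members tested, 8 had a higher mean in SS18-SSX2 tumors and 1, Dll1, a lower one. By limma on log2(FPKM + 1), with Benjamini-Hochberg adjustment over all 13873 genes and a threshold of 0.05, 0 members were called, and 2, Jag1 and Jag2, had an unadjusted p under 0.05. Over all tested genes 0.0649% were called, 0.0432% as higher in SS18-SSX2 tumors, and 4.97% had an unadjusted p under 0.05, 3.26% as higher. The alternative fit by voom on recovered reads also called 0 members, with 2 at an unadjusted p under 0.05, and its share over all genes was not taken. The median log2 fold change, SS18-SSX2 minus SS18-SSX1, was 0.75 over the members and 0.01 over all tested genes, of which 51.1% had a positive value. The members' median was 0.44 without SS18-SSX2 tumor 3, 1.12 without SS18-SSX1 tumor 1, 0.48 with muscle RNA as a covariate and 1.16 with weights per tumor. In bulk RNA a change in the share of cells that hold a transcript and a change of its level per cell cannot be told apart.

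**Figure D1:**
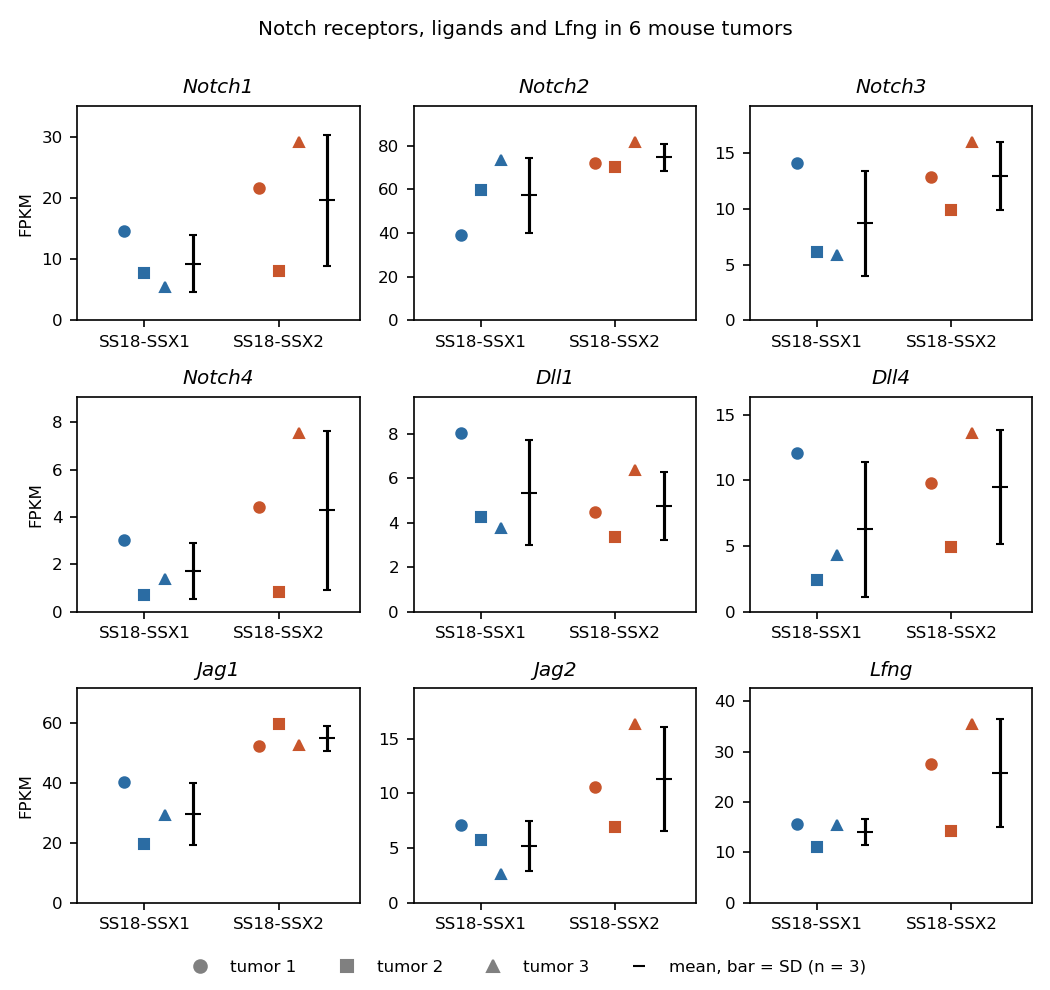
FPKM of each of the 9 measured genes (y axis, linear, from 0, its own scale in each panel) in the 3 SS18-SSX1 and 3 SS18-SSX2 tumors, with the symbol's shape for the tumor number and the mean with its SD beside each group. Only the Jag1 groups do not overlap, at 19.7 to 40.2 FPKM against 52.4 to 59.7 FPKM.

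Among the receptors, Notch2 had 39.2, 59.6 and 73.3 FPKM with SS18-SSX1, for tumors 1, 2 and 3 in this and all later sentences, against 71.9, 70.4 and 81.9 FPKM with SS18-SSX2. The groups overlapped, since SS18-SSX1 tumor 3 lay above SS18-SSX2 tumors 1 and 2, and tumor 1 of SS18-SSX1 was the low one. The means were 57.4 ± 17.1 and 74.7 ± 6.25 FPKM (SD, n = 3), and the log2 fold change was 0.42 (SE 0.30), at a limma adjusted p of 0.997. Without SS18-SSX1 tumor 1 it was 0.17. Its range over tumors, 2.09-fold from lowest to highest, was the narrowest of the 9 genes.

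Notch1, the receptor best known from T cell development and blood vessels, had 14.6, 7.80 and 5.53 FPKM with SS18-SSX1 against 21.7, 8.09 and 29.3 FPKM with SS18-SSX2. SS18-SSX2 tumor 2 lay among the SS18-SSX1 tumors, and the other two SS18-SSX2 tumors were the highest of all. The means were 9.31 ± 4.71 and 19.7 ± 10.8 FPKM (SD, n = 3), a ratio of 2.12. The log2 fold change was 0.93 (SE 0.51) with a 95% interval from -0.24 to 2.11, which spans 0, at a limma adjusted p of 0.997.

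Notch3 had 14.1, 6.09 and 5.88 FPKM with SS18-SSX1 against 12.8, 9.90 and 15.99 FPKM with SS18-SSX2. The 2 lowest tumors were SS18-SSX1 tumors 2 and 3, while SS18-SSX1 tumor 1 was level with the SS18-SSX2 tumors. The log2 fold change was 0.60 (SE 0.37), at a limma adjusted p of 0.997.

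Notch4, whose RNA is known mainly from endothelium, was the least abundant receptor, with 3.02, 0.703 and 1.39 FPKM with SS18-SSX1 against 4.43, 0.834 and 7.56 FPKM with SS18-SSX2. It spanned 10.8-fold, the widest range of the 9, and its lowest value within each genotype was that of tumor 2. The recovered reads behind these values were 324, 78 and 197 with SS18-SSX1 against 519, 49 and 875 with SS18-SSX2, so the lowest count was 49 reads. The means were 1.70 ± 1.19 and 4.28 ± 3.37 FPKM (SD, n = 3) with a log2 fold change of 0.79 and an interval from -0.59 to 2.18.

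Among the ligands, Jag1 was the only member whose genotypes did not overlap in FPKM. It had 40.2, 19.7 and 29.3 FPKM with SS18-SSX1 against 52.4, 59.7 and 52.7 FPKM with SS18-SSX2. In FPKM all 3 SS18-SSX2 tumors stood above all 3 SS18-SSX1 tumors, including the muscle-rich SS18-SSX2 tumor 2, which was the highest. Relative to the summed FPKM of all genes, SS18-SSX2 tumor 2 lay below SS18-SSX1 tumor 1 and was the lowest SS18-SSX2 tumor. The lack of overlap of Jag1 thus depends on the scaling. The means were 29.7 ± 10.3 and 54.95 ± 4.14 FPKM (SD, n = 3), a ratio of 1.85. The log2 fold change was 0.92 with SE 0.30 and an interval from 0.22 to 1.62, with an unadjusted p of 0.0167 and a limma adjusted p of 0.809. Among all tested genes 4.97% had all SS18-SSX2 tumors above all SS18-SSX1 tumors, 3.76% had them all below and 8.72% did not overlap in either direction. Of the members, 1 of 9 stood above and 0 below.

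Jag2, the other Jagged ligand, had 7.13, 5.75 and 2.66 FPKM with SS18-SSX1 against 10.6, 6.94 and 16.4 FPKM with SS18-SSX2. The groups overlapped by 1 pair, SS18-SSX1 tumor 1 above SS18-SSX2 tumor 2. Its mean went from 5.18 ± 2.29 to 11.3 ± 4.75 FPKM (SD, n = 3), with a log2 fold change of 1.00, SE 0.41 and a limma adjusted p of 0.990.

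Dll4, a ligand of sprouting vessels, had 12.1, 2.38 and 4.35 FPKM with SS18-SSX1 against 9.83, 4.95 and 13.6 FPKM with SS18-SSX2. Within each genotype tumor 2 again had the least, and the groups overlapped widely. The log2 fold change was 0.67 (SE 0.55), at a limma adjusted p of 0.997, and was 0.23 without SS18-SSX1 tumor 2 and 1.21 without SS18-SSX1 tumor 1.

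Dll1, a ligand of early muscle and neural progenitors, was the only member with a lower mean in SS18-SSX2 tumors. It had 8.05, 4.25 and 3.74 FPKM with SS18-SSX1 against 4.47, 3.35 and 6.37 FPKM with SS18-SSX2. The log2 fold change of -0.12 with SE 0.36 had an interval from -0.95 to 0.71, and its sign turned when SS18-SSX1 tumor 1 (0.17) or SS18-SSX2 tumor 2 (0.06) was left out.

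**Figure D2:**
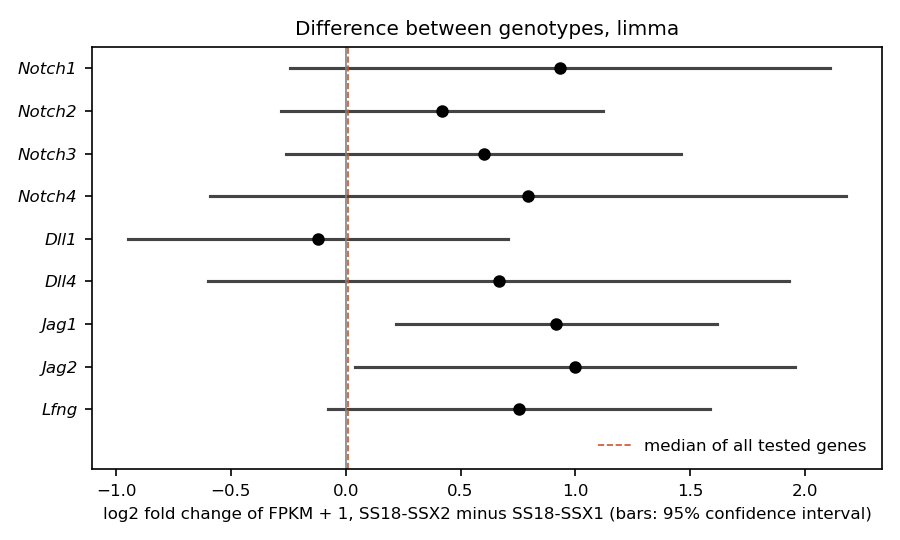
Log2 fold change of FPKM + 1, SS18-SSX2 minus SS18-SSX1 (x axis), for the 9 measured genes (y axis), with dots for the limma estimate, bars for its 95% confidence interval before any adjustment and a dashed line at the median of all tested genes, 0.01. The intervals of Jag1 and Jag2 lie above 0 and the other 7 span 0, while 0 of the 9 genes passed after adjustment over all genes.

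Lfng, the lunatic fringe sugar transferase, had 15.7, 11.1 and 15.4 FPKM with SS18-SSX1 against 27.5, 14.2 and 35.5 FPKM with SS18-SSX2. SS18-SSX2 tumors 1 and 3 were above all SS18-SSX1 tumors, and SS18-SSX2 tumor 2 lay within them. The means were 14.0 ± 2.57 and 25.7 ± 10.8 FPKM (SD, n = 3), a ratio of 1.83, and the log2 fold change was 0.75 (SE 0.36), at a limma adjusted p of 0.997. The other fringes, named as relatives of Lfng and outside the naming rule, were scarcer, with 1.94 ± 0.637 and 2.56 ± 0.686 FPKM for Mfng and 8.19 ± 1.64 and 10.6 ± 3.71 FPKM for Rfng.

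On GRCm38, Jag1 (ENSMUSG00000027276) spans 137081456 to 137116644 on chromosome 2, Notch1 (ENSMUSG00000026923) 26457903 to 26516663 and Dll4 (ENSMUSG00000027314) 119325784 to 119335962 on the same chromosome. Notch2 (ENSMUSG00000027878) spans 98013527 to 98150361 on chromosome 3, and Lfng (ENSMUSG00000029570) 140607320 to 140615545 on chromosome 5. Jag2 (ENSMUSG00000002799) spans 112907819 to 112929776 on chromosome 12. On chromosome 17 lie Dll1 (ENSMUSG00000014773) from 15367354 to 15376872, Notch3 (ENSMUSG00000038146) from 32120820 to 32166852 and Notch4 (ENSMUSG00000015468) from 34564268 to 34588503. All 9 are annotated as protein-coding.

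The DNA before the start of these genes was read from RefSeq promoter windows on GRCm38.p6, which held an entry for all 10 members and for 5 of the 10 target genes. The core motif of Rbpj, TGGGAA on either strand, was sought in the 250 bases before each start. It was present for 1 of 10 members, Lfng, and for 3 of 5 targets, Hes5, Hes7 and Hey2, beside 24.1% of the 27025 genes with a window (21.6% of 32851 windows of that length). The E box CACGTG, a site bound by Hey and many other factors, was present for 1 member, again Lfng, beside 6.86% of genes (6.02% of windows). Stretches of 3 genes are shown because Jag1 is the ligand whose groups did not overlap in FPKM, Lfng is the member with a motif and Hes5 is the target with the smallest p. Each is 5′ to 3′ on the gene's own strand, ends before the annotated gene, and has TGGGAA or its reverse complement TTCCCA in capitals.
Jag1, chr2:137116645-137116770, minus strand: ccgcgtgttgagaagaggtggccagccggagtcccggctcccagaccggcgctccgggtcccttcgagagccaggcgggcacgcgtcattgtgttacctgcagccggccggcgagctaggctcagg
Lfng, chr5:140607091-140607319, plus strand: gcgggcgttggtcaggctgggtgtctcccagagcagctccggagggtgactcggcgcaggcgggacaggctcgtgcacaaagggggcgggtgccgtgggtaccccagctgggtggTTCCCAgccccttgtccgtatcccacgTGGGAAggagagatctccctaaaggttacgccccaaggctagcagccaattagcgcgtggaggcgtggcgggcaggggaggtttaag
Hes5, chr4:154960673-154960922, plus strand: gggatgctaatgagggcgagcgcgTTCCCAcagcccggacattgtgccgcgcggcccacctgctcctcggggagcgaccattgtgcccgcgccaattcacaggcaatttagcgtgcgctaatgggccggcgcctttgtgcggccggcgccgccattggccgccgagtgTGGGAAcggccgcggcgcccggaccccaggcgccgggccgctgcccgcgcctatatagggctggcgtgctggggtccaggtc

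In Lfng the capitals begin 135 and 108 bases before the RefSeq start, and the E box begins 112 bases before it, so that it shares 2 letters with the second match. In Hes5 they begin 226 and 82 bases before the start, on opposite strands as in Lfng. Jag1 holds no match in its 250 bases, which says only that these letters are not there. A match is a stretch of letters and not a measured site.

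The summed FPKM of the 4 receptors was 70.9, 74.2 and 86.1 with SS18-SSX1 against 111, 89.2 and 135 with SS18-SSX2. The summed FPKM of the 4 measured ligands was 67.5, 32.1 and 40.1 with SS18-SSX1 against 77.3, 75.0 and 89.1 with SS18-SSX2. In both sums every SS18-SSX2 tumor stood above every SS18-SSX1 tumor, a description of genes chosen with earlier results of these data known. Relative to the summed FPKM of all genes, SS18-SSX2 tumor 2 lay below SS18-SSX1 tumor 1 for both families. The order of these sums thus depends on the scaling.

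Shares within a tumor do not depend on how the library was scaled. Notch2 made up 55.3% to 85.1% of receptor FPKM, Notch1 6.43% to 21.8%, Notch3 6.83% to 19.9% and Notch4 0.935% to 5.61%. Jag1 made up 59.2% to 79.7% of ligand FPKM and was the largest share in each of the 6 tumors. SS18-SSX1 tumor 1 had the lowest Notch2 share, with Notch1 at 20.6% and Notch3 at 19.9%.

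The Notch1 share was 12.5% ± 7.29 with SS18-SSX1 against 16.8% ± 6.78 with SS18-SSX2 (SD, n = 3), an exact two-sided permutation p of 0.6. Dll1 and Dll4 together made up 23.6% ± 5.42 and 17.3% ± 5.78 of ligand FPKM (SD, n = 3), an exact two-sided permutation p of 0.4. Adjusted over these 2 tests (Benjamini-Hochberg) both exact permutation values are 0.6, and 20 assignments of the tumors allow no p under 0.1. Dll1 alone took 11.9%, 13.3% and 9.34% with SS18-SSX1 against 5.78%, 4.47% and 7.15% with SS18-SSX2, without overlap. This single share was chosen after its values were seen and is given without a test.

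**Figure D3:**
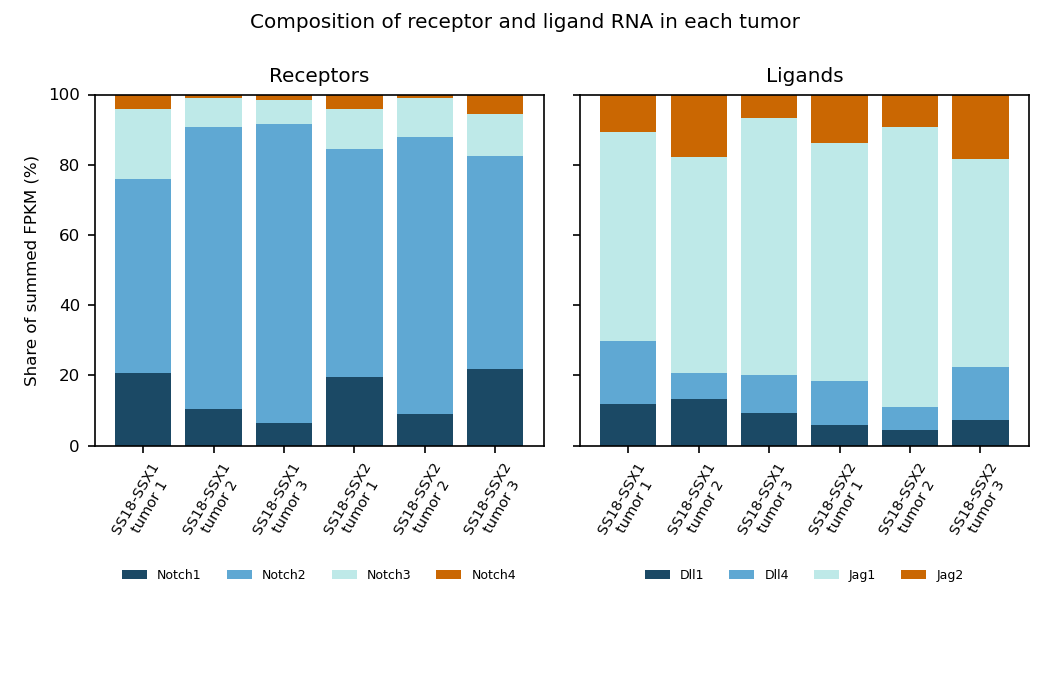
Stacked bars of the share of summed FPKM (y axis, percent) taken by each of the 4 receptors (left) and the 4 measured ligands (right) in each tumor (x axis). Notch2 fills 55.3% to 85.1% of the receptor bars and Jag1 59.2% to 79.7% of the ligand bars.

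RNA of vessels varied between the tumors together with several members. The mean log2(FPKM + 1) of 15 endothelial genes was 3.20, 1.77 and 2.47 with SS18-SSX1 against 3.27, 1.94 and 3.14 with SS18-SSX2, with all 15 genes in the table and none at 0. Cdh5, the cadherin of endothelial junctions, had 27.1, 2.55 and 10.4 FPKM and 32.7, 5.78 and 32.4 FPKM in the same order. Tumor 2 was the lowest of its genotype for this list, as it was for Notch4, Dll4 and Lfng. Among SS18-SSX2 tumors it was also the lowest in FPKM for every other member except Jag1. Relative to the summed FPKM of all genes, Jag1 was the lowest in that tumor too. Among SS18-SSX1 tumors Jag1 was lowest in tumor 2 as well. There Notch1, Notch3, Dll1 and Jag2 were lowest in the mast cell-rich tumor 3 and Notch2 in tumor 1. Of the 15 endothelial genes 0 were called by limma (0 with an unadjusted p under 0.05) and 10 had a higher mean with SS18-SSX2, with a median log2 fold change of 0.39. The part of vessel RNA in the members' differences was not tested.

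Set against the endothelial mean of its own tumor, a measure chosen after the values were seen, Notch4 lay at -1.19, -1.001 and -1.21 on the log2 scale with SS18-SSX1 against -0.83, -1.07 and -0.05 with SS18-SSX2. SS18-SSX2 tumor 2 lay among the SS18-SSX1 tumors, and SS18-SSX2 tumors 1 and 3 lay above them. Jag1 lay at 2.17, 2.60 and 2.45 and at 2.47, 3.98 and 2.60, so that on this scale SS18-SSX2 tumor 2 stood far above the SS18-SSX1 tumors. SS18-SSX2 tumor 1 lay within the SS18-SSX1 range and SS18-SSX2 tumor 3 was level with its top.

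The 12 pericyte and smooth muscle genes averaged 2.69, 2.70 and 2.49 with SS18-SSX1 against 3.40, 2.96 and 3.23 with SS18-SSX2, without overlap. All 12 were in the table, 1 stood at 0 in SS18-SSX2 tumor 2, and 1 of the 11 tested, Acta2, the smooth muscle actin, was called higher, beside 0.0432% of all tested genes. Its limma adjusted p was 0.0474, and ranged from 0.0222 to 0.392 over the alternatives. Of the 11, 10 had a higher mean with SS18-SSX2, beside 51.1% of all tested genes, with a median log2 fold change of 0.50. The groups did not overlap for 3, all of them higher, beside 4.97% of all tested genes. Rgs5, a signalling regulator of pericytes and the most abundant of the list, had 58.95, 9.93 and 32.9 FPKM and 78.0, 20.3 and 36.1 FPKM. Notch3 and Jag1 are known from such mural cells, and the part of mural cell RNA in their values was not tested.

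Without the tumor 2 library of each genotype, the log2 fold change was 1.38 for Notch1, 1.14 for Notch4, 0.97 for Lfng, 1.38 for Jag2 and 0.60 for Jag1. With the muscle level as a covariate it was 0.73 for Notch1, 0.47 for Notch4, 0.58 for Lfng, 0.94 for Jag2 and 0.84 for Jag1. Neither fit called a member.

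**Figure D4:**
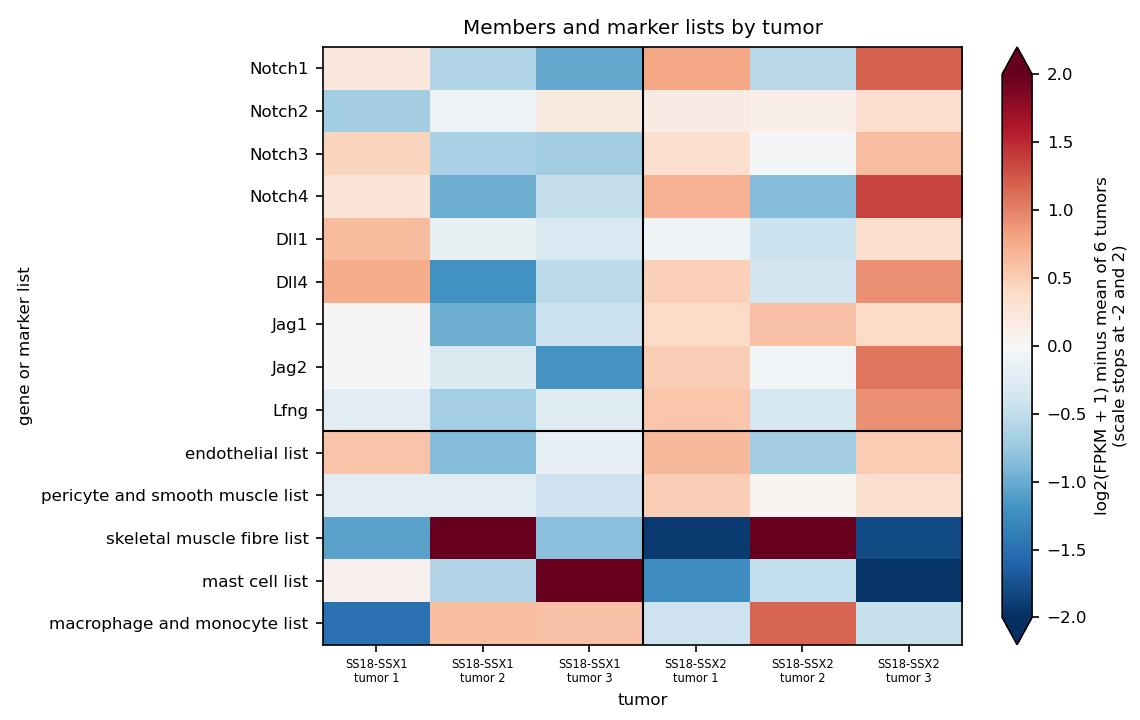
Log2(FPKM + 1) minus the mean of the 6 tumors (colour, stopping at -2 and 2) for the 9 measured genes and for the mean of 5 marker lists (y axis) in each tumor (x axis). Notch4, Dll4 and Lfng are lowest in tumor 2 of each genotype, where the endothelial list is lowest and the muscle list highest, and Jag1 is above its mean in all 3 SS18-SSX2 tumors. Among SS18-SSX2 tumors every member except Jag1 is lowest in tumor 2.

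The other genes of the pathway were taken from 6 lists, with 59 of 64 genes tested. Limma called 0 of them, 40 had a higher and 19 a lower mean in SS18-SSX2 tumors, and the median log2 fold change was 0.12. The groups did not overlap for 5 higher and 2 lower genes, 7 of 59, beside 8.72% of all tested genes. An unadjusted limma p under 0.05 was found for 7 of 59, beside 4.97% of all tested genes. The 40 higher means, the 5 higher genes and both counts of 7 include the target Heyl. It entered the test only through the SS18-SSX2 tumors, as described below.

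Pairs of means in what follows give SS18-SSX1 first. Of the sugar enzymes that prepare receptors, 5 of 7 had a higher mean and none was called. Pofut1, which adds fucose to the receptor, had 13.5 ± 3.90 and 17.6 ± 1.47 FPKM (SD, n = 3), Eogt 8.93 ± 5.40 and 13.1 ± 7.87, and Kdelc1, also named Poglut2, 22.0 ± 7.58 and 18.5 ± 7.73. Of 10 cleavage genes, 6 had a higher mean. Ncstn, a subunit of the gamma-secretase complex that makes the last cut, had 49.1 ± 6.15 and 64.2 ± 5.63 FPKM without overlap (limma adjusted p = 0.997), and the subunit Psenen had 1.76 ± 0.463 and 1.06 ± 0.423.

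Of 14 ubiquitin ligases and adaptors, 9 had a higher mean. Neurl1b, a ligase that drives uptake of ligands, stood at 3.90 ± 1.08 and 7.69 ± 0.642 FPKM (SD, n = 3) without overlap, at a limma adjusted p of 0.810. Fbxw7, the ligase subunit that marks the freed Notch fragment for decay, stood at 11.2 ± 3.33 and 5.53 ± 1.11 FPKM, at a limma adjusted p of 0.840, with all SS18-SSX2 tumors below all SS18-SSX1 tumors. Dtx3 was the most abundant of this list, at 67.1 ± 10.3 and 83.4 ± 25.7 FPKM.

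Of 15 genes of the nuclear complex, 10 had a higher mean. Rbpj, chosen as the DNA-binding factor of the pathway and outside the naming rule, had 6.29 ± 1.10 and 5.77 ± 1.22 FPKM (SD, n = 3). The coactivator Maml3 had 11.4 ± 2.56 and 6.74 ± 1.49 FPKM without overlap, at a limma adjusted p of 0.990. Crebbp had 42.4 ± 9.74 and 46.0 ± 11.7 FPKM and Snw1, close to it on the mean of 6 tumors and named for that, had 48.2 ± 11.3 and 39.9 ± 6.79 FPKM. Among 5 tested noncanonical ligands, Dlk1 ranged from 12.2 to 125 FPKM with its peak in SS18-SSX1 tumor 3, Dner had 1.81 ± 2.18 and 5.05 ± 3.85 FPKM, and Mfap2 62.9 ± 54.5 and 40.9 ± 12.0.

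Of 8 tested target genes, 7 had a higher mean with SS18-SSX2, none was called, and the median log2 fold change was 0.86. Hes5, a repressor switched on by Notch, had 2.53, 1.33 and 3.14 FPKM with SS18-SSX1 against 9.34, 8.76 and 15.1 FPKM with SS18-SSX2 (limma adjusted p = 0.353), and the letters before its start are shown above with those of Lfng. Heyl, a target in mural cells, had 0.911, 0.625 and 0.357 FPKM and 1.82, 2.07 and 1.62 FPKM (limma adjusted p = 0.847). All its SS18-SSX1 values lay under 1 FPKM, so Heyl entered the test only through the SS18-SSX2 tumors. Its higher mean and its lack of overlap were thus fixed by the filter. It still counts in the 7 higher means, in the median, in the 3 of 8 below and in the counts over the 59 genes above. Nrarp, a feedback inhibitor named because its groups did not overlap, had 3.33 ± 2.06 and 6.55 ± 1.08 FPKM (SD, n = 3). Hey1, a Hey repressor named after its values were seen, had 16.2 ± 7.74 and 35.8 ± 12.2 FPKM with overlap. Hes1, the most abundant target, had 93.7 ± 58.6 and 74.9 ± 12.7 FPKM, with 161 FPKM in the mast cell-rich SS18-SSX1 tumor 3. All SS18-SSX2 tumors stood above all SS18-SSX1 tumors for 3 of the 8 targets, Hes5, Heyl and Nrarp, beside 4.97% of all tested genes. The groups overlapped for the other 5, Hes1, Hes3, Hes6, Hey1 and Hey2. Outside the targets, Ncstn and Neurl1b had the same order.

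**Figure D5:**
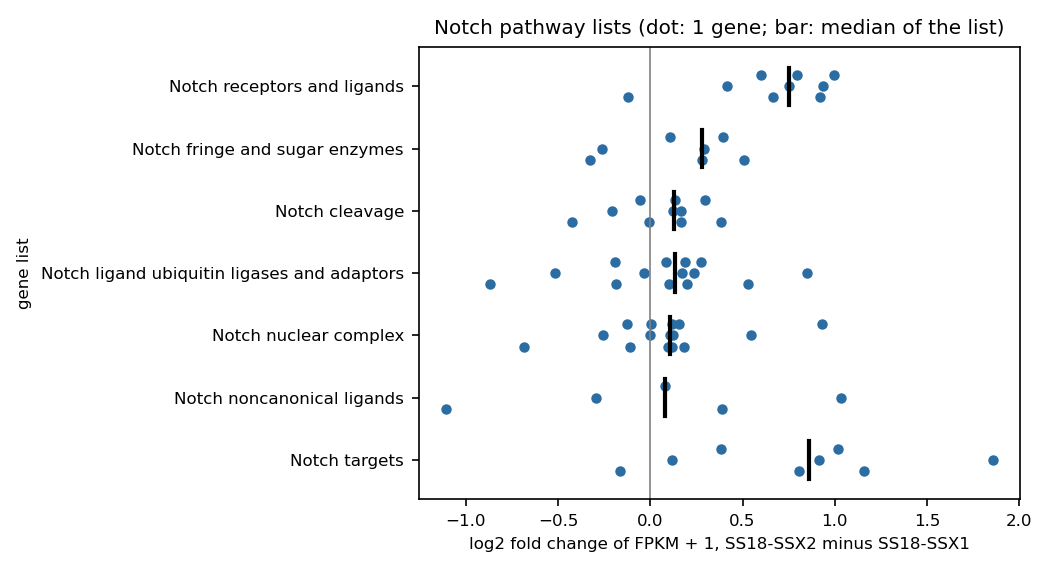
Log2 fold change of FPKM + 1, SS18-SSX2 minus SS18-SSX1 (x axis), of each tested gene (dots) in the 7 Notch pathway lists (y axis), with a bar at each list's median. The medians are 0.75 for receptors and ligands and 0.86 for targets, and 0.08 to 0.28 for the other 5 lists, while 0 of these genes passed limma's adjusted threshold. The targets include Heyl, which entered the test only through the SS18-SSX2 tumors.

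The genes whose profile over the 6 tumors was most like that of Notch2 were Mrgpre, Imp4 and Chrna4. Their root mean square distance to it, on centred log2(FPKM + 1), was 0.07, 0.08 and 0.09, against a median of 0.51 over all tested genes. For Jag1 they were Hdhd3, Tro and Pear1, at 0.15, 0.15 and 0.16 against a median of 0.65. These names describe the 6 libraries and carry no test.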

How the data were processed

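Total RNA of 6 tumors, 3 per genotype, was sequenced after Ribo-Zero depletion, per the labels' protocols. The authors deposited 1 table of FPKM values with 1 column per tumor. Novoalign 2.08.03 and mm10 are listed, without a role, per the submitters' processing notes. Not given in the sources used here were the counting tool, gene models, strand setting and filters, so overlapping and antisense genes may share reads.

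Columns were matched to tumors by their labels, and identifiers to GENCODE mouse release 21 on GRCm38 (17029 of 17312 found). The test was limma 3.58.1 (R 4.3.3) on log2(FPKM + 1) (eBayes with a mean-variance trend, two-sided, all 6 tumors), with Benjamini-Hochberg adjustment over genes with at least 1 FPKM in at least 3 tumors. Fold changes on this scale understate the change of low genes. Read totals came from the steps between low FPKM values: 99.98% of genes gave whole reads within 0.02 reads, 8737 at their annotated exon length and 8571 at the smallest length that served, which can fit by chance. Reads are printed only for Notch4, which had its annotated exon length. The fit was also run on simulated counts, with changes larger than those of the members and no difference in cell content between tumors. That run therefore does not tell how well changes of the members' size would be found here.

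The naming rule took all members, the 2 other pathway genes per list with the smallest p and the most abundant 1, the most abundant gene of each cell type list, and the 3 genes most like the top receptor and ligand. 1 gene that the rule takes is not reported here. Members and lists were chosen with earlier results of these data known. Alternatives were pseudocounts of 0.1 and 0.5, other filters, scalings, variance priors, tumor weights, a muscle covariate, left-out tumors and a replicate block. Python 3.11.15 and matplotlib 3.10.9 made tables and figures.

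Cell type lists not described with the results, or only in part, are given here by their mean log2(FPKM + 1) over the tumors. It was 2.09 to 4.75 for macrophages and monocytes (Lyz2 highest), 0.28 to 2.86 for lymphocytes (Igkc), 0.81 to 1.80 for neural progenitors and glia (Sox1), 0.13 to 2.14 for adipocytes (Fabp4) and 3.85 to 4.20 for synovial sarcoma genes (Vim).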

Additional observations from a re-analysis of the deposited data

How the results depend on the processing

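Across 20 alternative settings 0 of the receptor and ligand genes and 0 of the other pathway genes were called, and 176 of 179 member fold changes kept their sign. The 3 that turned were those of Dll1, at 0.15 with weights per tumor and at 0.17 and 0.06 when tumor 1 of SS18-SSX1 or tumor 2 of SS18-SSX2 was left out, where the cause was not tested. With 1 tumor left out Dll1 ranged from -0.32 to 0.17. Over these settings the log2 fold change ranged from 0.60 to 1.16 for Jag1 (limma adjusted p from 0.249), 0.66 to 1.38 for Jag2 (from 0.296), 0.48 to 1.16 for Lfng (from 0.285), 0.57 to 1.44 for Notch1 (from 0.330), 0.17 to 0.61 for Notch2 (from 0.521), 0.40 to 0.97 for Notch3 (from 0.389), 0.31 to 1.52 for Notch4 (from 0.391) and 0.23 to 1.24 for Dll4 (from 0.411). With weights per tumor 7 of the 9 members had an unadjusted p under 0.05, against 2 in the fit as reported and 0 without SS18-SSX1 tumor 2. The share of all tested genes under 0.05 was not taken for these alternative fits, so their counts have no background beside them. Notch4 was not fitted with a minimum mean of 5 FPKM. The number of genes called over the whole table was 9, and was 5 with a pseudocount of 0.1, 16 with weights per tumor, 20 without both tumor 2 libraries and 3 to 11 with 1 tumor left out, 3 being without SS18-SSX2 tumor 3. With the tumor number as a replicate block 4 genes were called, none of them a member. Deviations of same-numbered tumors correlated at 0.38, 0.31 and -0.28 for numbers 1, 2 and 3, and those of differently numbered tumors at -0.44 to 0.23. Deviations from the mean of so few tumors are tied to each other, so these values cannot decide whether the numbers mark pairs. Column names of tumors 2 and 3 share the letters A and B across genotypes. No label says that these mark a batch or pairs, so the numbers were not taken as pairs. The Dll share difference stayed between -8.78 and -3.08 percentage points and the Notch1 share difference between 1.25 and 8.33 with 1 tumor left out. The fit of recovered reads was chosen after seeing the data.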
